A study of Mus musculus with 4 samples.

Results

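The 7 mouse genes of the endothelin system were Edn1, Edn2 and Edn3, which encode the ligand precursors, Ednra and Ednrb, which encode the receptors, and Ece1 and Ece2, which encode the converting enzymes. They were taken from the deposited gene annotation by exact match of the gene name, and all 7 were found, out of 46078 genes in all. Their 527 lines, of 1500259 in the annotation, comprised 25 transcript, 234 exon, 197 CDS, 37 UTR, 17 start codon and 17 stop codon lines. None of these lines holds a value of a library, so the results describe gene models on GRCm38 and no level or difference of expression.

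The study used bone marrow-derived macrophages from C57/BL6 mice to ask how these cells respond to mechanical force through PIEZO1, a channel that opens when the membrane is stretched. The 4 libraries of polyA RNA stood for 4 groups of 1 library each. All groups carried floxed Piezo1 alleles and were grown with M-CSF at 50 ng/mL. The static group called WT in the labels was Piezo1 fl/fl without Cre and was held for 6 h in a pressure chamber under static pressure. The static group called KO differed in carrying LysM Cre, which is expressed in myeloid cells and removes floxed sequence there. The cyclic WT and cyclic KO groups had the same genotypes and spent 6 h under pressure cycles of about 15 mmHg, with the intake valve open for 0.6 s and the exhaust valve for 0.4 s. Cre-negative and Cre-positive mice were cohoused littermates. Deletion of Piezo1, the identity of the cells as macrophages and the depth of the libraries could not be checked here without expression values.

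Endothelins are short peptides that constrict vessels and act on nearby cells. Each is cut from a precursor by furin-type enzymes to an inactive form called big endothelin, and a membrane-bound zinc metalloprotease, endothelin-converting enzyme, then cuts big endothelin after a tryptophan to release the active peptide. The active peptide binds a pair of G protein-coupled receptors, of which the one encoded by Ednra prefers endothelin 1 and endothelin 2, and the one encoded by Ednrb binds all the endothelins about equally well. Human macrophages are known to make endothelin.

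The sequences that carry the function of the ligands are the 21 codons of the mature peptide, and in each ligand gene these lay within exon 2. Its first 10 codons are shown first, with the codons of cysteines 1 and 3, which take part in the disulphide bonds that fold the peptide, in capitals. The positions are chr13:42303649-42303678 for Edn1, chr4:120161951-120161980 for Edn2 and chr2:174761749-174761778 for Edn3, all on the plus strand of GRCm38, with bases from GENCODE M21.
Edn1, mature codons 1 to 10: TGTtccTGTtcttccttgatggacaaggag
Edn2, mature codons 1 to 10: TGCtccTGCaactcctggcttgacaaggaa
Edn3, mature codons 1 to 10: TGCacgTGCttcacttacaaggacaaggag

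Codons 13 to 21 and the next codon are shown because they hold the site that the converting enzymes cut, which follows tryptophan 21. The codons of cysteine 15 and of the tryptophan are in capitals. The positions are chr13:42303685-42303714, chr4:120161987-120162016 and chr2:174761785-174761814, on the plus strand.
Edn1, mature codon 13 to the codon after the peptide: tacttcTGCcacctggacatcatcTGGgtc
Edn2, mature codon 13 to the codon after the peptide: tacttcTGCcacctggacatcatcTGGgtg
Edn3, mature codon 13 to the codon after the peptide: tactatTGCcacctggacatcatcTGGatt

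The tryptophan codon was the same in the 3 genes, and the codon after the cut encoded valine in Edn1 and Edn2 and isoleucine in Edn3. The mature peptides of Edn1 and Edn2 shared 18 of 21 residues and 53 of 63 bases. Edn1 and Edn3 shared 15 residues and 50 bases, and Edn2 and Edn3 shared 15 residues and 48 bases. The differences lay mainly at the amino end. Of residues 11 to 21, Edn1 and Edn2 shared 11 of 11 and each shared 10 of 11 with Edn3. Of residues 1 to 10, Edn1 and Edn2 shared 7, and each shared 5 with Edn3.

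Edn1 encodes endothelin 1, the best known vasoconstrictor of the family and a product of endothelium. Its gene (ENSMUSG00000021367) lay on the plus strand at chr13:42301270-42307989 and had 1 transcript, 1 start group and 1 protein. A start group, given by the tss_id attribute, is a set of transcripts with the same first base, and a protein, given by p_id, is a distinct coding sequence. The transcript had 5 exons and 2344 bases, of which 606 bases (25.9%) coded for a precursor of 202 codons. Its 5′ UTR of 625 bases was longer than that of 95.8% of the 22111 protein-coding genes with a coding transcript, whose median was 129 bases. GENCODE M21 gives it 419 bases. The 3′ UTR had 1110 bases, and exon 5 alone held 51.7% of the exon bases but only 100 coding bases.

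Edn2 encodes endothelin 2, a close relative of endothelin 1 in sequence. It (ENSMUSG00000028635) lay on the plus strand at chr4:120161206-120167360 and, like Edn1, had 1 transcript with 5 exons. It was the shortest transcript among the main ones, with 1462 bases, 525 coding bases (35.9%), a precursor of 175 codons, a 5′ UTR of 304 bases and a 3′ UTR of 630 bases. Edn1 and Edn2 were the 2 of 7 members with a single transcript, against 38.9% of the protein-coding genes.

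Edn3 encodes endothelin 3, which acts through the receptor of Ednrb in the development of melanocytes and enteric neurons. It (ENSMUSG00000027524) was the most extended ligand gene, covering chr2:174760619-174784042 on the plus strand, with 4 transcripts in 4 start groups. Its intron 2, directly downstream of the exon with the mature peptide, had 16762 bases and made up 82.5% of the intron bases. The introns of Edn1 had 150 to 1598 bases and those of Edn2 had 306 to 1918. The longest coding transcript, Edn3-001, had 3117 bases, 214 codons and a coding share of 20.6%, the lowest of the members. Its 3′ UTR had 2124 bases, and its 5′ UTR had 348.

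A second coding transcript of Edn3 changed the precursor but not the peptide. Edn3-002 lacked 132 bases of exon 2 (44 codons) and 12 bases of exon 4 (4 codons) and encoded 166 codons in place of 214. The mature peptide moved from codons 97 to 117 in Edn3-001 to codons 53 to 73 in Edn3-002, at the same genome position in both. Edn3-002 started 180 bases downstream of Edn3-001. The other transcripts were noncoding: Edn3-003, a retained-intron transcript, and Edn3-004, a processed transcript whose start lay 9303 bases downstream, inside intron 2.

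The 3 ligand genes shared an arrangement of exons that the choice of the members did not use. Each had 5 exons, with the start codon in exon 1, the mature peptide in exon 2 and the stop codon in exon 5. In each, the phases of the introns, that is the number of bases of a split codon that lie before the intron, were 1, 2, 2 and 2. Over 173844 coding introns of the protein-coding genes, 45.4% had phase 0, 32.4% phase 1 and 22.2% phase 2, so each ligand had 3 of 4 introns in the phase that was rarest. Intron 2 split the codon 5 places after the mature peptide in Edn1, Edn2 and both coding transcripts of Edn3. The same spacing of cysteines as in the mature peptide occurred once more in each precursor, in exon 3, at codons 110 to 124 of Edn1, 93 to 107 of Edn2 and 159 to 173 of Edn3-001, a stretch known as the endothelin-like sequence.

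Taken whole, with these landmarks included, the precursors were less alike than the mature peptides. Edn1 and Edn2 shared 37.4% of 171 aligned residues, Edn1 and Edn3 39.9% of 163, and Edn2 and Edn3 44.5% of 146. As a share of the longer precursor the values were 31.7%, 30.4% and 30.4%, so the order of the pairs depends on the measure. The length of no coding exon was the same in Edn1 as in Edn2 or Edn3, with 0 of 5 matches in each pair. Intron 2 fell at the same aligned place and phase in all 3 pairs, and 0 to 1 of the other 3 introns did so in a given pair. Within 5 residues and at the same phase lay 4 of 4 introns of Edn1 and Edn2, 3 of 4 of Edn1 and Edn3, and 1 of 4 of Edn2 and Edn3.

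**Figure D1:**
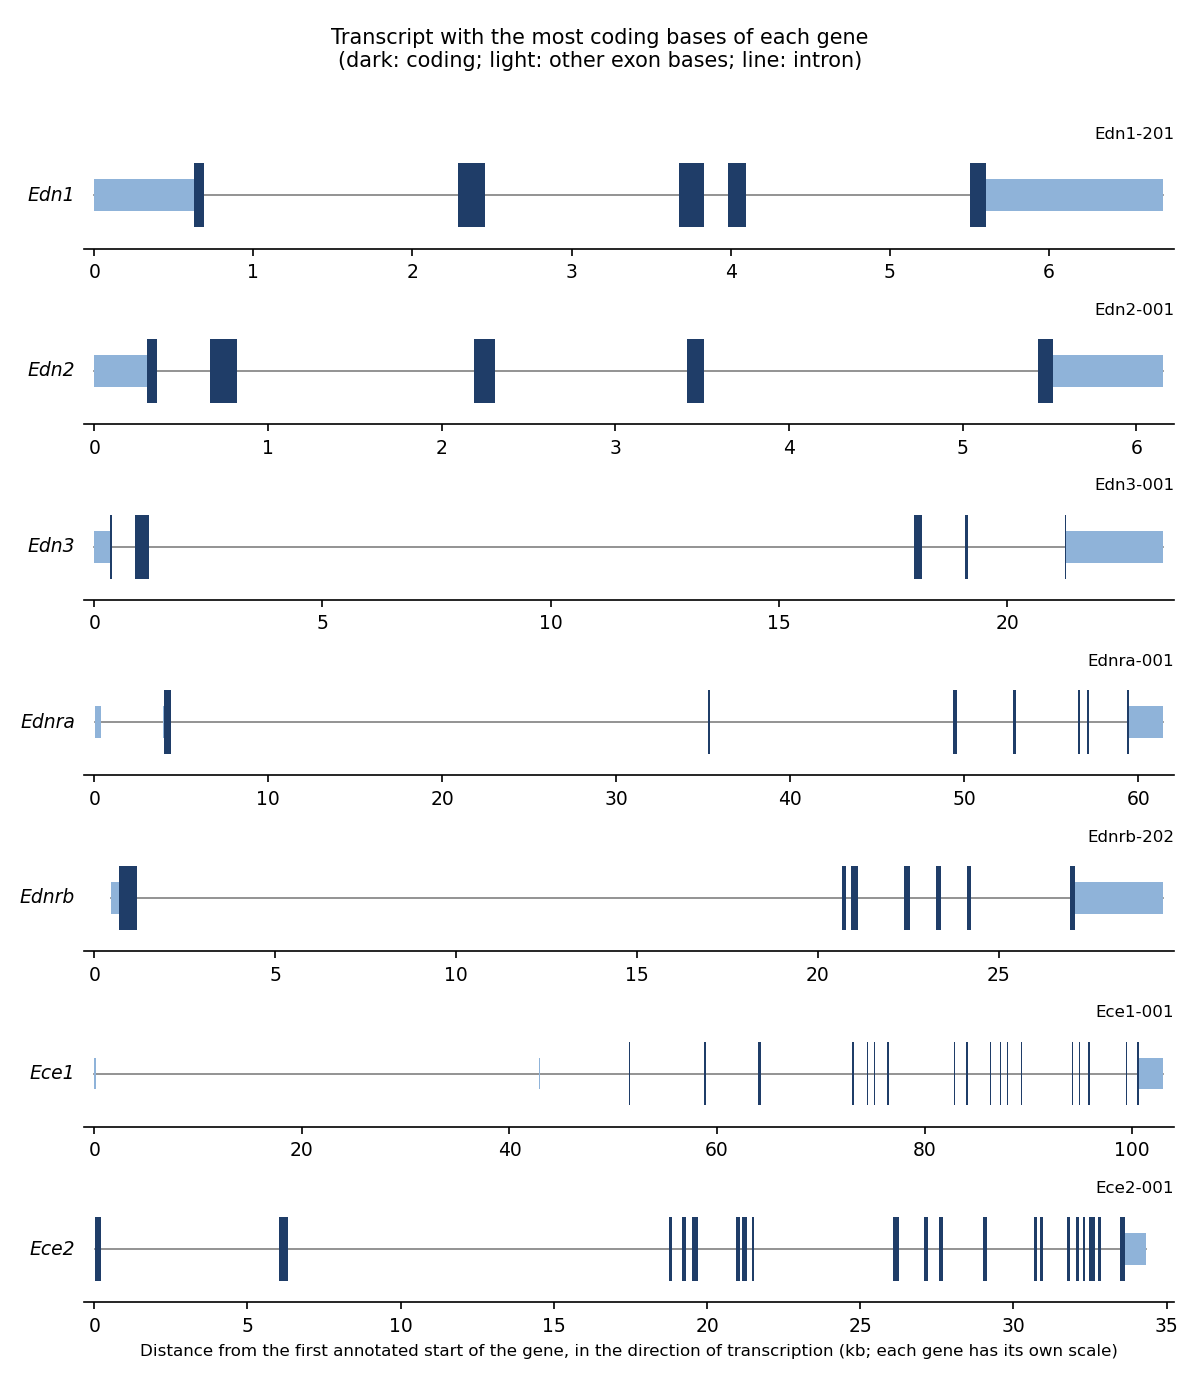
Exons of the longest coding transcript of each member, drawn along the gene in kb from its first annotated start, with a separate scale for each gene. Dark boxes are coding bases, light boxes other exon bases and lines introns. The longest intron has 16762 bases in Edn3, 30831 in Ednra, 19489 in Ednrb, 42688 in Ece1, 1598 in Edn1 and 1918 in Edn2. In Ece2-001, the model drawn for Ece2, it has 12442 bases. GENCODE M21 assigns Ece2-001 to Gm49333 as a readthrough transcript, and in Ece2-004 the longest intron has 4545 bases.

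The receptors are introduced by the codons for aspartate, arginine and tyrosine (the DRY motif), which couple receptors of this class to their G proteins. The motif started at codon 182 in Ednra and at codon 198 in Ednrb. An intron split its arginine codon after 2 bases in both genes, so the sequences below cross an exon junction in the spliced transcript. For Ednra the pieces are chr8:77689069-77689082 and chr8:77675096-77675111, and for Ednrb chr14:103823392-103823405 and chr14:103823244-103823259, all on the minus strand. The capitals mark the 3 codons.
Ednra, codons 179 to 188: ctcagtgtgGACAGGTACagagcagtggct
Ednrb, codons 195 to 204: ctaagtattGACAGATATcgagctgttgct

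Ednra, the receptor of vascular smooth muscle that mediates constriction, (ENSMUSG00000031616) lay on the minus strand at chr8:77663031-77724464. Its span of 61434 bases was longer than that of 81.7% of the protein-coding genes. Ednra-001, its only coding transcript, had 8 exons, 3625 bases and 1281 coding bases (35.3%) for 427 codons. Exon 1, of 341 bases, was noncoding, and intron 2, of 30831 bases, followed the first coding exon and held 53.4% of the intron bases. The 3′ UTR had 1945 bases. Ednra-002 was a retained-intron transcript of 3147 bases whose start lay 28 bases upstream of that of Ednra-001, so that the gene had 2 start groups but 1 protein.

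Ednrb, the receptor whose loss in mice leaves the colon without enteric neurons and the coat with white spots, (ENSMUSG00000022122) lay on the minus strand at chr14:103814625-103844173. It had 2 coding transcripts in 2 start groups that shared 1 protein of 442 codons. Ednrb-201 started 477 bases upstream of Ednrb-202 and had a noncoding first exon of 47 bases, an intron of 589 bases and a 5′ UTR of 108 bases. Ednrb-202 began within that intron, in an exon that extends the exon of the start codon upstream by 159 bases, and had a 5′ UTR of 220 bases. The coding share was 34.2% in Ednrb-201 and 33.2% in Ednrb-202, and the 3′ UTR of Ednrb-202, of 2440 bases, was the longest among the main transcripts of the members. The intron after the first coding exon had 19489 bases and made up 77.7% of the intron bases of Ednrb-202.

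The coding parts of the receptor genes were divided in the same way. The proteins shared 57.3% of 419 aligned residues, and 6 of 6 coding introns lay at the same aligned place, with phases 0, 2, 0, 0, 2 and 0 in both genes. Of the 7 coding exons compared from the last, 2 had the same number of coding bases, with 134 and 109 in each gene. The first coding exon held 420 coding bases in Ednra and 483 in Ednrb. The introns at the same place differed in length, with 13957 bases in Ednra and 132 in Ednrb for the intron that split the DRY motif.

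The enzymes are membrane proteins whose active site is turned outward or into vesicles. Each binds zinc through a motif of 5 residues, histidine, glutamate, any 2 residues and histidine, which is shown in capitals within 10 codons. It lay in an exon of 68 bases in both genes, exon 17 of Ece1-001 and of Ece2-001, at chr4:137957166-137957195 and chr16:20643884-20643913 on the plus strand. The motif started at codon 590 of Ece1-001 and codon 747 of Ece2-001, which is also the transcript of the Ece2 codon numbers below. Ece2-001, which GENCODE M21 assigns to another gene, has 160 codons before its exon 3. In Ece2-004, which GENCODE M21 keeps in Ece2, the motif started at codon 600, in exon 16.
Ece1, codons 588 to 597: gtgggcCACGAGCTGACTCACgctttcgat
Ece2, codons 745 to 754: atgggcCATGAGTTGACACATgcctttgat

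The starts of the proteins are shown because the transcripts of the enzymes differed there. The sequences are the first 10 codons with the start codon in capitals, at chr4:137913768-137913797 for Ece1-001 and Ece1-002, chr4:137913582-137913611 for Ece1-003, chr16:20630009-20630038 for Ece2-004, Ece2-005 and Ece2-010, and chr16:20611625-20611654 for Ece2-001 and Ece2-002, all on the plus strand.
Ece1-001 and Ece1-002: ATGtcaacctacaagcgggccacgctggac
Ece1-003: ATGcggaccgtgtggtcgccgctggccgcc
Ece2-004, Ece2-005 and Ece2-010: ATGaacgtcgcgctgcacgagttgggtggc
Ece2-001 and Ece2-002: ATGgcctctccccggactccggtgtcccct

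Ece1, the main enzyme that converts big endothelin 1, (ENSMUSG00000057530) covered chr4:137862237-137965229 on the plus strand. Its span of 102993 bases was the longest of the members and longer than that of 89.5% of the protein-coding genes. Ece1 and Edn2 share chromosome 4, with 17694876 bases between the end of Edn2 and the start of Ece1. Ece1-001, the only Ece1 transcript with both a start and a stop codon, had 20 exons, 4816 bases and 2259 coding bases (46.9%) for 753 codons. Exons 1 and 2 were noncoding, and intron 1 had 42688 bases. The start codon was the first 3 bases of exon 3, which had 87 bases. Exon 20, of 2500 bases, held 51.9% of the exon bases, and the 3′ UTR had 2323.

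Ece1-003 offered another amino end. It started 51234 bases downstream of Ece1-001, in a first exon of its own with 48 coding bases, and joined them in frame to the exon of 87 bases, so that 16 codons preceded the start codon of Ece1-001. In human and rat, the isoforms of this enzyme differ in this cytoplasmic end and in where the enzyme sits in the cell. Ece1-002 began 60 bases downstream of Ece1-001 and skipped its exon 2, and it coded from the same start codon. Ece1-002 and Ece1-003 carry a tag that marks their 3′ ends as incomplete, and stop after 29 and 205 codons, before the exon of the zinc motif. Ece1-004 was noncoding. The 4 transcripts had 4 start groups and 3 proteins.

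Ece2, the related enzyme best known from nervous tissue, (ENSMUSG00000022842) had the most transcripts. The deposited gene covered chr16:20611593-20646485 on the plus strand with 11 transcripts, 9 start groups and 9 proteins. The number of proteins was larger than in 98.0% of the protein-coding genes, but it holds for the deposited gene only. It includes the proteins of Ece2-001, Ece2-002, Ece2-003 and Ece2-201, which GENCODE M21 assigns to other genes. Ece2-007 and Ece2-009, which lack an annotated start codon, are also counted, among the start groups as well. The transcript with the most coding bases, Ece2-001, had 20 exons, 3432 bases, 2730 coding bases (79.5%) and 910 codons, and its 5′ UTR of 15 bases was the shortest among the main transcripts. Its coding share was the only one of the 7 above the median of the protein-coding genes. Ece2-004, which GENCODE M21 keeps in Ece2, had a 5′ UTR of 181 bases and a coding share of 72.6%, also above that median.

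The starts of these transcripts fell into an upstream and a downstream group. Starting within 201 bases of each other, 5 transcripts lay at the upstream end, and the other 6 started at least 18235 bases downstream. Ece2-002 and Ece2-003, of 255 and 197 codons, ended before the downstream starts and lacked the zinc motif. Ece2-001 and Ece2-201 joined 480 coding bases of the upstream exons, 160 codons, in frame to exons of the downstream group. Ece2-004, which had the most coding bases among the transcripts with downstream starts, had 19 exons, 3152 bases and 763 codons, with a coding share of 72.6%, larger than that of 64.7% of the protein-coding genes. Its own first coding exon gave 13 codons.

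GENCODE M21, which uses the same build, divides the deposited Ece2 among 3 genes. It keeps 6 of the 11 transcripts in Ece2. It assigns Ece2-002 and Ece2-003 to Eef1akmt4, a gene of a lysine methyltransferase, and it assigns Ece2-001 and Ece2-201 to Gm49333, where both are tagged as readthrough transcripts. Ece2-009, which had no annotated start codon, is not in GENCODE M21. Ece2 was 1 of 7 members with a transcript assigned to another gene, against 1.2% of the protein-coding genes. Of the 6547 bases that any Ece2 exon covered in the deposited annotation, 1610 (24.6%) lay outside the 6 kept transcripts, and all 1610 belonged to the Eef1akmt4 transcripts. Those transcripts shared 0 exon bases with the kept ones. A count over the deposited Ece2 gene thus includes exons that GENCODE M21 gives to another gene.

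**Figure D2:**
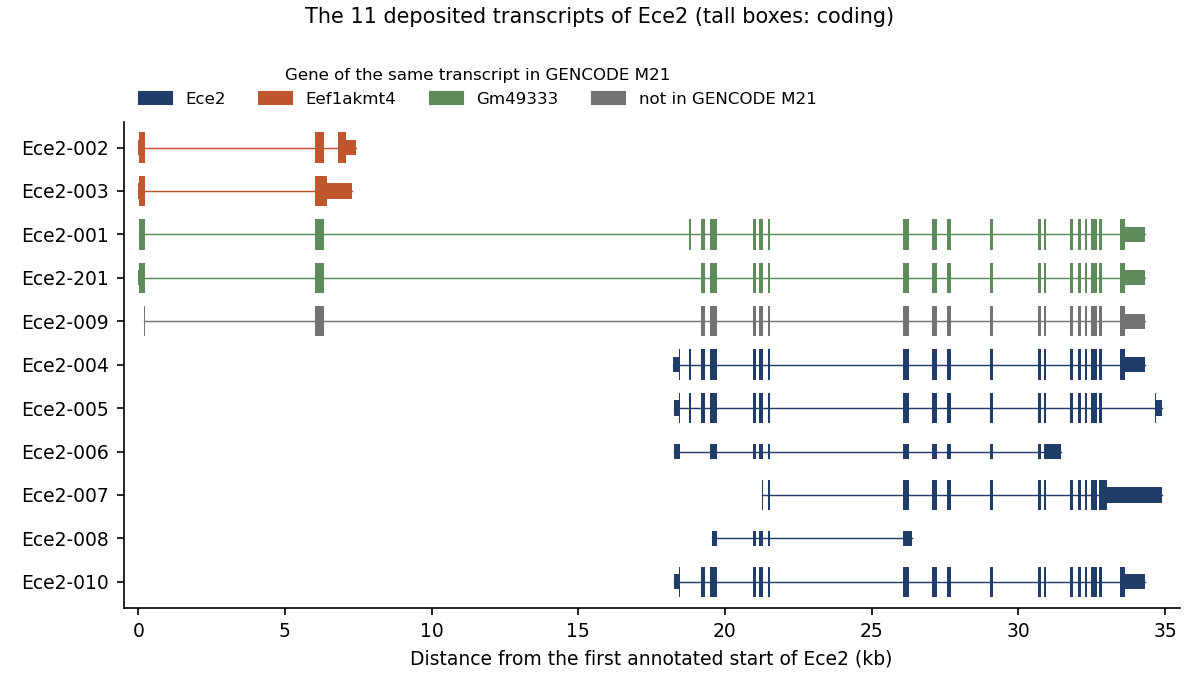
The 11 deposited Ece2 transcripts along the gene, in kb from its first start, coloured by the gene to which GENCODE M21 assigns the same transcript. Tall boxes are coding bases; the Eef1akmt4 and kept Ece2 transcripts occupy separate stretches, and the Gm49333 transcripts span both.

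The coding transcripts that reach the downstream exons differed in which of them they held. Ece2-010 lacked the 87-base exon 2 of Ece2-004 and had 734 codons. Among those that start upstream, Ece2-201 lacked the same exon and had 29 codons fewer than Ece2-001. Ece2-005 ended in another last exon of 216 bases, 12 of them coding, and had 709 codons. Of the 7 coding Ece2 transcripts with both a start and a stop codon, 5 contained the zinc motif. Ece2-006 and Ece2-008 were retained-intron transcripts, and Ece2-007 was a coding transcript with a tag for an incomplete 5′ end. Its last exon ran on through the last intron of Ece2-004, and the transcript, with 3445 bases, had the most exon bases of the transcripts with downstream starts.

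Ece1 and Ece2 were alike in sequence and in the division of their coding bases. Ece1-001 and Ece2-004 shared 62.3% of 749 aligned residues. Of the 17 coding introns of Ece1-001, 16 lay at the same aligned place and phase in Ece2-004, and the other one lay within 5 residues. Counted from the last, 14 of 18 coding exons had the same number of coding bases in both. The exon of 87 bases that opens the coding sequence of Ece1-001 had its counterpart in exon 2 of Ece2-004, where 13 codons from another exon precede it. The 3′ UTR was 2323 bases in Ece1-001 and 684 in Ece2-001.

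**Figure D3:**
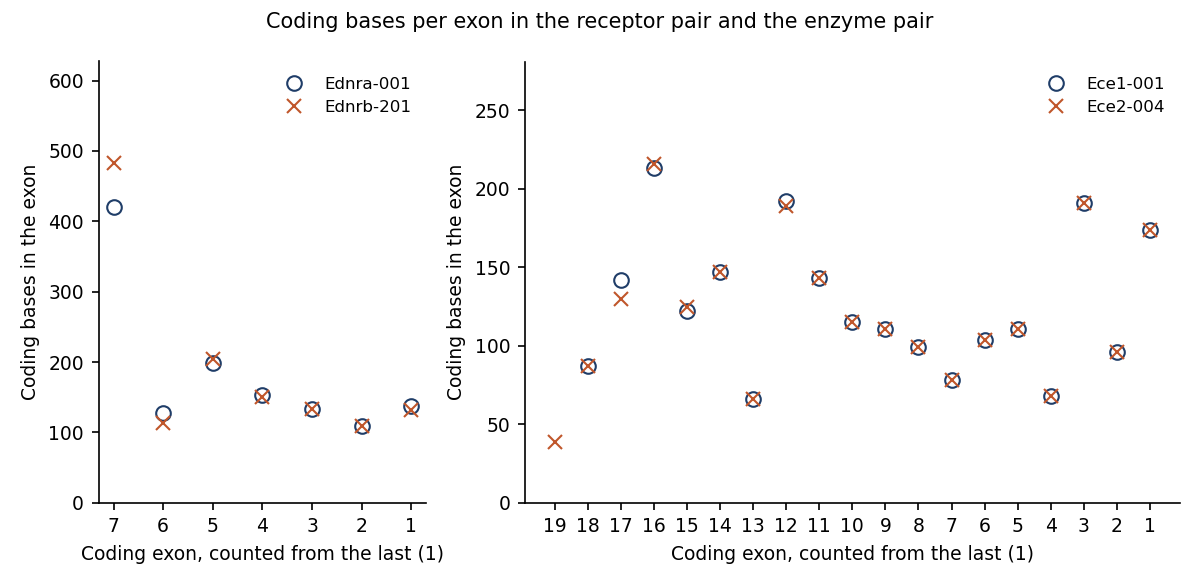
Coding bases per exon in Ednra-001 and Ednrb-201 (left) and in Ece1-001 and Ece2-004 (right), with exons counted from the last. Circles mark the first and crosses the second transcript of each pair; they coincide for 2 of 7 exons of the receptors and 14 of 18 of the enzymes.

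The untranslated parts made up most of the main transcript in all members but Ece2. The coding share was 25.9% in Edn1, 35.9% in Edn2, 20.6% in Edn3, 35.3% in Ednra, 33.2% in Ednrb, 46.9% in Ece1 and 79.5% in Ece2, where the median of the 22111 protein-coding genes was 61.5% (quartiles 41.6% and 81.0%). Thus 6 of 7 were below that median. The Ece2 value is that of Ece2-001, which GENCODE M21 assigns to Gm49333, and Ece2-004 had 72.6%, also above the median. Edn3, at percentile 5.44, and Edn1, at percentile 9.13, were the lowest. In Edn3, Ednra, Ednrb and Ece1 the 3′ UTR was longer than in 84.8%, 82.5%, 88.1% and 86.9% of the genes. The protein-coding genes had a median 3′ UTR of 580 bases. The 3′ UTR of Ece2-001, of 684 bases, was longer than in 53.9% of the genes.

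**Figure D4:**
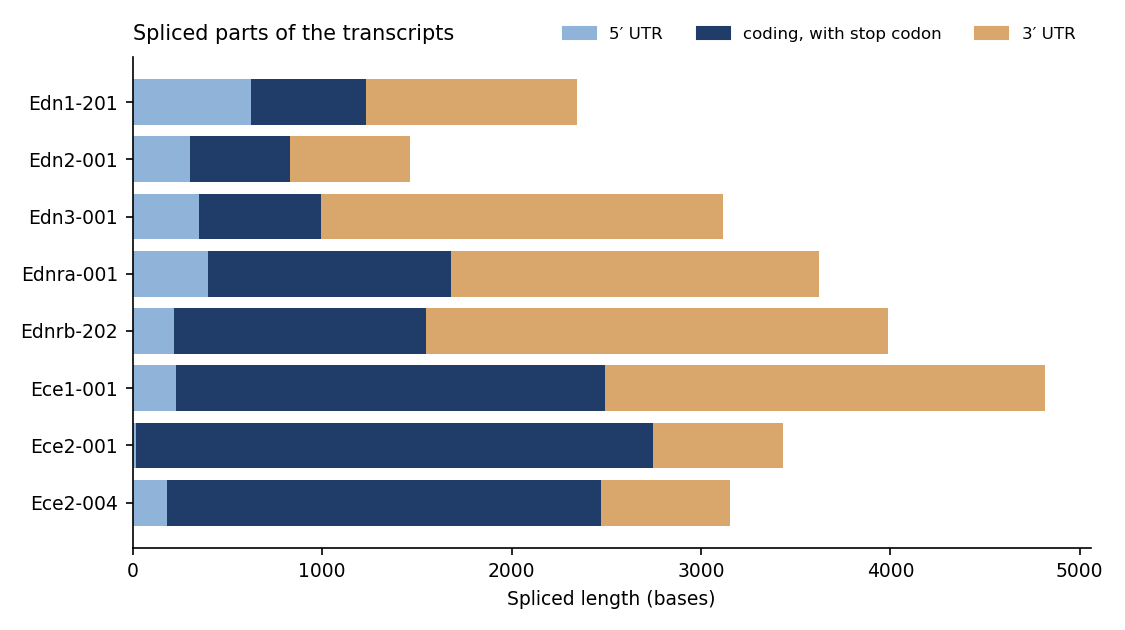
Spliced length in bases of the longest coding transcript of each member and of Ece2-004, divided into 5′ UTR, coding sequence with the stop codon and 3′ UTR. The 5′ UTR is widest in Edn1-201, with 625 bases, and the 3′ UTR in Ednrb-202, with 2440 bases.

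**Figure D5:**
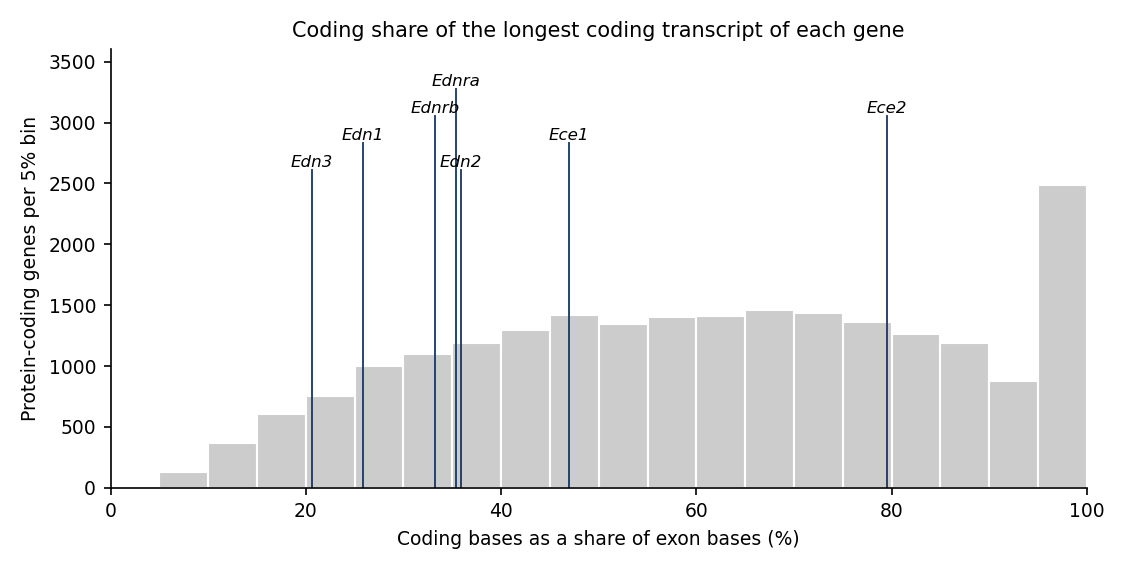
Number of protein-coding genes per 5% bin of coding share (bars), with each member marked by a line at its own share. Edn3 is the lowest at 20.6% and Ece2 the highest at 79.5%. The Ece2 line is that of Ece2-001, which GENCODE M21 assigns to Gm49333, and Ece2-004 has 72.6%.

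A pentamer of letters ATTTA, which is part of many elements that shorten the life of messenger RNA, was counted on the transcript strand in the 3′ UTR. Edn1, whose message is known to be short-lived, had 3 pentamers in its 3′ UTR, none of them within 600 bases of the stop codon. Ednrb and Ece1 also had 3, Edn2 and Edn3 had 1, and Ednra and Ece2 had 0. Because the 3′ UTRs differ in length, the pentamers per kb were 2.70 in Edn1, 1.59 in Edn2, 1.29 in Ece1, 1.23 in Ednrb and 0.47 in Edn3. Within the first 600 bases, Ece1 had 3 and Edn2 had 1. Among the 11065 genes with a 3′ UTR of at least 600 bases in GENCODE M21, 45.6% had none in that stretch and 11.1% had at least as many as Ece1. The hexamer AATAAA, the common polyadenylation signal, was in the last 50 bases of 6 of 7 main transcripts, all but Ednra-001, against 62.7% of 18994 genes. A match is a description of the letters and not of a working site.

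Counts of transcripts and starts were read against all protein-coding genes. Several start groups were annotated in 5 of 7 members, against 58.4%. The count was 4 of 7 with coding transcripts only and with starts merged within 50 bases, because Ednra then had 1. The share of 58.4% belongs to the first count, and no matching share is given for the alternatives. Several proteins were annotated in 3 of 7, Edn3, Ece1 and Ece2, against 46.6%. A retained-intron transcript was present in 3 of 7, Edn3, Ednra and Ece2, against 30%, and a transcript marked for nonsense-mediated decay in 0 of 7, against 14.2%. The longest coding transcript opened with a noncoding exon in 2 of 7, Ednra and Ece1, against 31.2%. That count rests on a choice in Ednrb, whose 2 transcripts have the same number of coding bases. Ednrb-202 was taken for its 3989 exon bases, against 3878 in Ednrb-201, which opens with a noncoding exon. In GENCODE M21 Ednrb-201 has 4107 exon bases. With 7 members these counts are a description and were not tested.

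Genes beside the members came from lists of peptide-processing enzymes with the neprilysin family, and of related receptors and signalling proteins. The lists include relatives by family and are not a list of the endothelin pathway. Of 12 genes of furin-type enzymes and of the neprilysin family, to which Ece1 and Ece2 belong, 10 had several start groups and 8 several proteins, where 58.4% and 46.6% of the protein-coding genes did. Their coding share had a median of 71.4%, beside 61.5% over those genes, and ranged from 28.0% in Mme, the neprilysin gene, to 87.9% in Mmel1, a close relative of it. Of 14 genes of related receptors, G protein subunits, phospholipase C beta enzymes and inositol trisphosphate receptors, 9 had several start groups and 8 several proteins. Their coding share had a median of 57.8%, beside the same 61.5%, and ranged from 18.4% in Gna13, a G protein subunit, to 89.1% in Itpr3, an inositol trisphosphate receptor.

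Exons of other genes met those of 1 of 7 members, against 24.2% of the protein-coding genes. The noncoding gene 4933431K23Rik on the opposite strand holds the whole of Ednra in its body, and its exons covered 91 bases of exon 6 of Ednra-001, all coding, or 1.66% of the exon bases of Ednra. The sources used here give no strand for these libraries. Without it, a single read that lies wholly within those bases cannot be told apart between the genes. Gm13012 lay on the opposite strand inside Ece1 and Camk2n2, a gene of an inhibitor of CaM kinase II, lay on the opposite strand inside Ece2, each with 0 shared exon bases. Camk2n2 sat in the gap between the upstream and the downstream group of Ece2 transcripts, with 207 bases between its 3′ end and that of Ece2-002.

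Protein-coding neighbours lay further from the other members than from Ece2, and no distribution over all genes is given for these gaps. The gaps to the nearest protein-coding genes were from 23160 bases, between Hivep3 and Edn2, to 617502 bases, between Ednrb and Pou4f1, in the members other than Ece2. Edn1 followed Hivep1, at 116243 bases, and Edn2 followed Hivep3, so that both ligand genes lay next to a gene of the same family of zinc finger proteins. Edn3 followed another zinc finger gene, Zfp831, at 49786 bases. Ece2 was the exception, with Alg3 824 bases upstream of its first deposited start on the opposite strand and Psmd2 5166 bases downstream. That start is the one of Ece2-002, which GENCODE M21 assigns to Eef1akmt4. The first transcript that GENCODE M21 keeps in Ece2 starts 18235 bases further downstream, so the short gap to Alg3 holds for the deposited gene only.

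The models were compared with GENCODE M21 as a check on what a count over them would include. The bases covered by exons differed in 3 of 7 members, Edn1, Ednrb and Ece2, against 36.3% of 21759 protein-coding genes found in both. Edn1 starts 206 bases further downstream in GENCODE M21, which shortens its 5′ UTR from 625 to 419 bases, and RefSeq (GRCm38.p6) has its start at the same base as GENCODE M21. The length of the 5′ UTR of Edn1 therefore depends on the annotation. In GENCODE M21 the start of Ednrb-201 lies 229 bases further upstream, at base 103844402 of chromosome 14, and Ednrb has 3 transcripts in place of 2. Edn2, Edn3, Ednra and Ece1 covered the same number of bases in both, 1462, 4113, 5476 and 5300. RefSeq has 4 starts for Ece1, at 0, 17, 87 and 7111 bases from the nearest deposited one.

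Windows of 75 bases, the read length, were searched in the transcripts of GENCODE M21 to see which members share sequence with other genes. Edn1, Edn2, Edn3, Ednrb and Ece1 shared 0 of their windows with another gene on either strand. Ednra shared 21 of 5402 windows (0.389%), with 4933431K23Rik on the opposite strand. Ece2 shared 2863 of 5390 (53.1%), all with Gm49333. In that annotation, 57.5% of the exon bases of Ece2 are also exon bases of Gm49333, so single reads of this length from there could belong to either gene.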

How the data were processed

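The deposited file is an annotation in GTF format for the whole series. Its values are 1-based coordinates of features on GRCm38, deposited with Ensembl identifiers, and 0 of its lines hold a score. The submitters' processing notes name the builds GRCm38 and mm10 and, without roles, Cufflinks, TopHat2, Bowtie2, FastQC and CASAVA 1.8. No source used here gives the annotation release. Libraries were made from polyA RNA and read as pairs of 75 bases, per the labels' protocols.

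Python 3.11.15 with numpy 2.4.6, biopython 1.88 and matplotlib 3.10.9 was used. The main transcript of a gene is the protein-coding one with the most coding bases, then the most exon bases. Coding bases exclude the stop codon. A percentile is the share of the 22111 genes with a smaller value. Exon overlap needed at least 1 shared base. Proteins were translated from GENCODE M21 transcripts and aligned globally (BLOSUM matrix, gap opening 11, extension 1). Functions were tested on made-up gene models with known answers. No test between libraries was possible, so no error or p-value is given.

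The members, the lists and the alternatives were chosen with earlier results of these data known. The text names the 7 members, genes that overlap, hold or lie in them, the nearest protein-coding genes, and the extremes of both lists. Eef1akmt4, Gm49333, the motifs, the readthrough comparison and the shared windows were chosen after the values were seen.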

Additional observations from a re-analysis of the deposited data

How the results depend on the processing

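The median coding share of the 7 members was 35.3% and moved to 32.8% when the union of all transcripts replaced the longest coding transcript. Counting the stop codon gave 35.4% and the median over coding transcripts 35.9%. The number of members with an exon overlap was 1, and it was 0 when at least 100 shared bases were required and 3 in GENCODE M21, an alternative chosen after the data were seen. The share of 24.2% over all protein-coding genes belongs to the first of these counts only. The share of protein-coding genes with several start groups was 58.4% over all of them and 95.6% over those with 2 or more transcripts, so that share follows the number of transcripts by its construction. The total of 23 start groups fell to 18 with coding transcripts only, and to 18 with starts merged within 50 bases. The total of 18 proteins was the same when coding structures were compared, which largely repeats the definition of a protein and so adds little as a check. The median exon length of the members, 4113 bases, was 3432 to 4266 under the 3 alternatives. For single genes, the exon length of Ednra was 3625 bases with coding transcripts only, in place of 5476, and that of Ece2 was 3432 with the longest coding transcript, in place of 6547. The coding share of Ednra was 23.4% over all its transcripts, in place of 35.3%. Ece2 had 5 start groups after merging, in place of 9, and Edn3 had 2 with coding transcripts only, in place of 4. The coding share of Ece2 was 51.3% over all its transcripts, in place of 79.5%, and that of Edn3 was 44.4% as a median over its coding transcripts, in place of 20.6%.

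No paired analysis was possible because the annotation holds no library values and each group has 1 library. The lengths and counts have no sampling error. Their limits are the annotation release and the choice of transcript. No depth bears on them.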
